A study of Mus musculus with 2 samples.

Results

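The genes described here are the mouse zinc finger genes whose symbol is Zfp followed by a number, in iTreg cells cultured with or without an HDAC6 inhibitor. A gene was included when its deposited value was at least 5 in the control or in the TSA library, where a value is log2(normalized count + 1). Zfp36, an mRNA decay factor with another type of zinc finger, was left out. The members were thus chosen by measured values of the same 2 libraries that are compared, so levels and changes are given as a description, without a test. Of 23282 rows in the table, 336 had such a symbol, and 236 of these reached the cut-off. There were 10375 rows of any kind at the same cut-off.

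Naïve CD4+ T cells from spleens of young adult wild-type (WT) C57BL/6 mice were activated with plate-bound anti-CD3 and soluble anti-CD28. They were cultured for 1 day with IL-2, TGF-β1 and blocking antibodies against IFN-γ and IL-4, conditions that induce Treg cells in vitro. The control culture received DMSO, the vehicle, and the other received 10 μM Tubastatin A (called TSA here, a hydroxamate inhibitor of HDAC6). Each condition was 1 library, so no difference below has a replicate check, and p-values could not be computed. The QuantSeq libraries read the end of each polyadenylated transcript, so the reads of a gene do not scale with the length of the transcript. Whole reads could be recovered from the deposited values, and they summed to 10846166 in the control and 10432628 in the TSA library. Every interval below is an exact Clopper-Pearson 95% interval of the TSA over control fold. It covers counting error only, since copies made by PCR are not independent molecules and cultures also vary. Foxp3, which defines Treg cells, had 1633 reads in the control and 965 in the TSA library, and Il2ra, which encodes CD25, had 8851 and 7511. The fold of Foxp3 was 0.586 (interval 0.540 to 0.634), so it was lower but not past 2-fold. The study names Foxp3 among its genes lower by more than 2-fold. The 6 T cell markers of the table held 11889 and 14285 reads, against 80 and 87 for CD8 genes, 15 and 15 for B cell genes, 126 and 101 for myeloid genes, and 3 and 6 for NK cell genes. Erythroid genes held 43 and 58 reads and stromal or endothelial genes 154 and 258, of which Pecam1 gave 144 and 234. The part of these small differences in the results below was not tested. In such bulk libraries, fewer cells of a type and less RNA per cell cannot be told apart.

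Most proteins of the family carry C2H2 zinc fingers, small folds in which a pair of cysteines and a pair of histidines hold a zinc ion. Successive fingers contact successive bases of DNA, so that an array of fingers reads a long site. Many members also carry a KRAB box, which recruits the corepressor TRIM28 (KAP1) and through it the histone methyltransferase SETDB1 and HP1 proteins, and such proteins are known for silencing retroelements and keeping genomic imprints. Other members have no KRAB box and work in transcription complexes, RNA processing, ribosome assembly or mitosis. KRAB genes arose by repeated duplication and lie in groups on the chromosomes.

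The build of one finger is shown by the coding bases of the first finger with regular spacing in 5 members, chosen because they include neighbouring genes that were higher in the TSA library and a gene that was lower. Each stretch is 63 bases of the longest GENCODE M21 protein, written 5′ to 3′, with the codons of the cysteines and histidines in capitals. The stretches code for residues 213 to 233 of Zfp583, 207 to 227 of Zfp78, 379 to 399 of Zfp28, 154 to 174 of Zfp747 and 328 to 348 of Zfp213.
Zfp583: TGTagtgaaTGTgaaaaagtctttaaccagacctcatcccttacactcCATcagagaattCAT
Zfp78: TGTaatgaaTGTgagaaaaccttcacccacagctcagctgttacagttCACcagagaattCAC
Zfp28: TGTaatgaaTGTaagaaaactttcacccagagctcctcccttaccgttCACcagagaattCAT
Zfp747: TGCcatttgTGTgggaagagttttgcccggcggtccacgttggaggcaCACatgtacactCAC
Zfp213: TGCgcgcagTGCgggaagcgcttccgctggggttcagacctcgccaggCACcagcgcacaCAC
Zfp78 and Zfp28, which lie next to each other, shared 54 of the 63 bases, and Zfp583 shared 48 with Zfp78 and 49 with Zfp28. Zfp747, from elsewhere on chromosome 7, shared 32 with Zfp78. Across the members with a translated protein (233 of 236), the longest protein held 0 to 37 fingers, with a median of 10. A pattern for the KRAB box was found in 115 members and not in 118. The KRAB members had a median of 12 fingers, and the others a median of 7.5.

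The Zfp genes were transcribed at low levels. The lowest, median and highest log2 values were 2.82, 6.69 and 11.49 in the control library and 4.52, 6.78 and 10.97 in the TSA library. In reads, the median member had 101.5 in the control and 109.5 in the TSA library, whereas the median row at the cut-off had 329 and 323. All 236 members together made up 0.493% of the control library and 0.521% of the TSA library. The counts of most members were therefore small, and counting error alone was wide for them.

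With TSA, 147 members had higher and 89 had lower values than in the control (62.3% and 37.7%), against 47.6% and 52.3% of all rows at the cut-off. The median log2 change of the members (TSA minus control) was 0.10. The median of all rows at the cut-off was -0.02. Scaling by total reads would move every log2 change up by about 0.07, so negative medians smaller than this, that of all rows included, would turn positive. Past the 2-fold threshold that the study used, 23 members were higher and 4 lower, against 5.69% and 2.08% of all rows at the cut-off. As a share of the members these were 9.75% and 1.69%. The counting interval lay above no change for 69 members and below it for 42, against 26% and 31.6% of all rows. Because the rule used this contrast, nothing is read from these counts. Of the 236 members, 212 reached the cut-off in both libraries, 19 in the TSA library alone and 5 in the control library alone. A gene that reached it in one library alone had to be higher there, and 13 of the 23 members past 2-fold higher were of this kind. Among the 212 members at the cut-off in both libraries, 10 were past 2-fold higher and 3 past 2-fold lower, which is 4.72% and 1.42%. Of all 9657 rows at the cut-off in both libraries, 2.38% and 1.38% were.

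**Figure D1:**
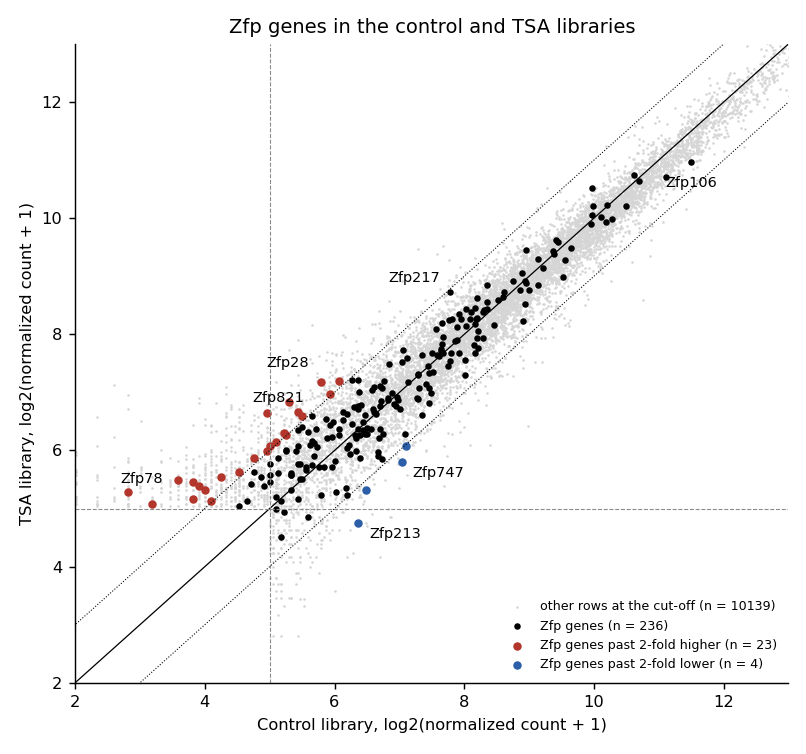
Each point is a gene, with the control library on the x axis and the TSA library on the y axis, both as log2(normalized count + 1). Black points are the Zfp genes, red and blue those past 2-fold higher (23) and lower (4), and grey points the other rows at the cut-off. The solid line marks equal values, dotted lines mark 2-fold and dashed lines the cut-off of 5. The red points sit at low levels, many of them left of the cut-off in the control library.

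The members past 2-fold were found at low levels. Members were split by the mean of the 2 log2 values. Below a mean of 6, 17 of 68 members were past 2-fold higher (25%), against 29% of all rows in that range. Between 6 and 7 there were 6 of 70 (8.57%), against 8.55% of all rows. None of the 39 members between 7 and 8 and none of the 59 members at 8 or more were past 2-fold in either direction, against 2.53% and 0.424% of all rows on the higher side. On the lower side, 2 of 68 members below 6 passed, against 7.06% of all rows, and 2 of 70 between 6 and 7, against 2.18%. Within a range of level, the shares of Zfp genes past 2-fold higher were thus near or under those of all rows. The median log2 changes of the members were 0.47, 0.09, 0.01 and 0.08 from the lowest to the highest range, beside 0.44, 0.12, 0.03 and -0.08 for all rows. In the highest range, 35 members were higher and 24 lower, whereas 2270 rows of any kind were higher and 3622 lower.

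**Figure D2:**
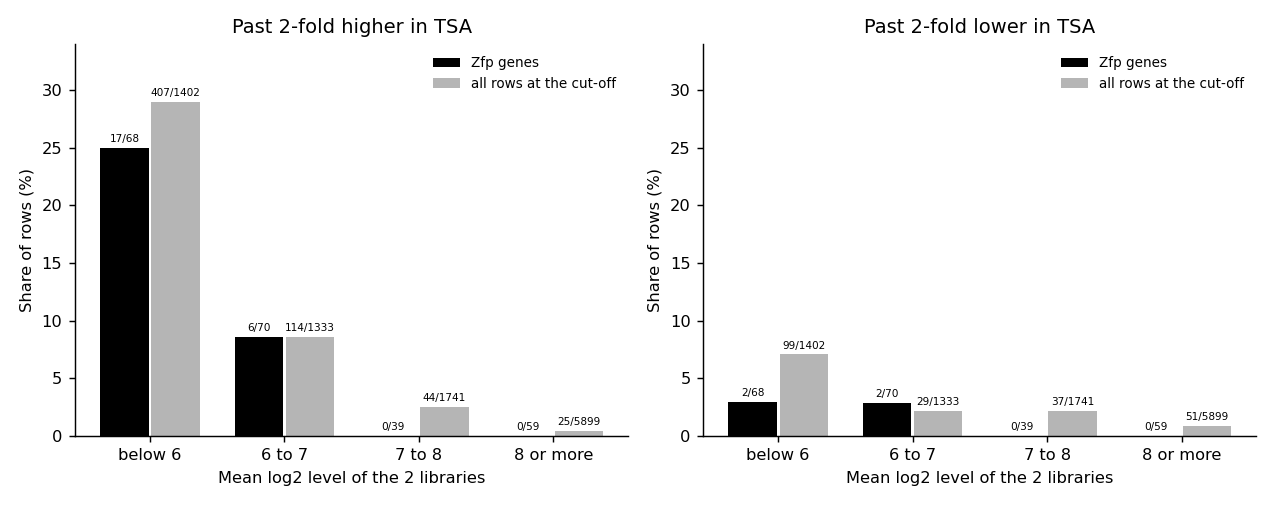
Share of genes past 2-fold higher (left) or lower (right) in the TSA library, in percent, for 4 ranges of the mean log2 level. Black bars are the Zfp genes and grey bars all rows at the cut-off, with counts over the bars. On the higher side both fall with the level, from 17 of 68 Zfp genes and 407 of 1402 rows below 6 to 0 of 59 Zfp genes and 25 of 5899 rows at 8 or more.

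The member with the largest change was Zfp78, a KRAB zinc finger gene at chr7:6363280-6382605 (GRCm38), with 6 reads in the control and 38 in the TSA library. Its log2 change was 2.46, and the interval of the fold was 2.63 to 18.2. Zfp273, a KRAB gene on chromosome 13, had 8 and 33 reads (log2 change 1.90, interval 1.85 to 10.2). Both were among the least transcribed members in the control library. Zfp558, a KRAB gene on chromosome 9, had 11 and 44 reads (1.89, interval 2.01 to 8.504). Zfp821, which has 3 fingers and no KRAB pattern, had 30 and 100 reads, a log2 change of 1.69 with an interval of 2.18 to 5.14. Zfp933, a KRAB gene on chromosome 4, had 38 and 114 reads, a log2 change of 1.55 with an interval of 2.04 to 4.41. Zfp78, Zfp558, Zfp821 and Zfp933 were the 4 members whose whole interval lay above 2-fold, against 2.17% of all rows at the cut-off. For all 23 members past 2-fold higher, the interval lay above no change.

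Zfp947 and Zfp820 lie in one group on chromosome 17. Zfp947 had 13 and 43 reads (log2 change 1.64), and 12.4% of the possible 75-base reads from the end of its transcripts also match another annotated transcript. Zfp820, a KRAB gene with 12 fingers, had 18 and 46 reads (1.29, interval 1.44 to 4.64). Zfp28 stood out among these genes for its depth, with 54 reads in the control and 145 in the TSA library (1.39, interval 1.93 to 3.70). Zfp583, which lies beside Zfp78 and Zfp28, had 15 and 39 reads (1.31, interval 1.39 to 5.03). Zfp551, a KRAB gene further along chromosome 7, had 26 and 58 reads (1.11, interval 1.37 to 3.66). These 5 genes had at most 54 reads in the control library.

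Several of the genes past 2-fold higher had no KRAB pattern. Zfp704, with 1 finger by the pattern, had 14 and 41 reads, a log2 change of 1.47. Zfp11, with 21 fingers, had 13 and 35 reads (1.35), and Zfp710, with 11, had 42 and 101 (1.23, interval 1.65 to 3.499). The gene with the most reads among the 23 was Zfp41, a short protein with 4 fingers, at 66 reads in the control and 146 in the TSA library (1.12, interval 1.63 to 2.98). Zfp94 had 22 and 49 reads (1.11, interval 1.31 to 3.83). The remaining 8 were Zfp870, Zfp39, Zfp516, Zfp2, Zfp579, Zfp937, Zfp873 and Zfp316, with log2 changes of at most 1.09 (Zfp870). With a pseudocount of 5, Zfp94 and these genes other than Zfp870 and Zfp39 were no longer past 2-fold. Of the 23 genes, 13 had the KRAB pattern.

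**Figure D3:**
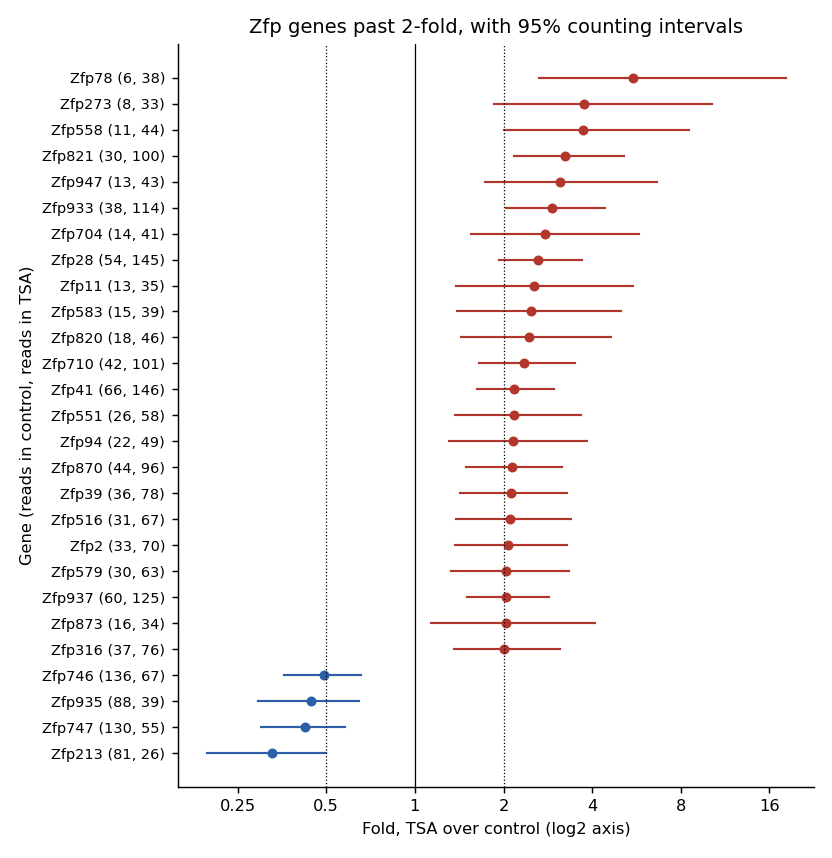
Fold of TSA over control on a log2 axis for the 27 Zfp genes past 2-fold, with exact 95% counting intervals as lines and reads in the control and TSA libraries in parentheses. The solid line marks no change and dotted lines 2-fold. The intervals of the 23 higher genes all lie above 1, and 4 of them lie wholly above 2. That of Zfp213 lies wholly below 0.5, by a narrow margin.

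Of the members that were lower in the TSA library, Zfp213 had the largest change. It had 81 reads in the control and 26 in the TSA library, a log2 change of -1.62 with an interval of 0.196 to 0.4998. The annotated end of Zfp213 overlaps genes on the opposite strand, and whether the authors counted by strand is not given in the sources used here. Zfp747, a KRAB gene, had 130 and 55 reads (-1.24, interval 0.300 to 0.578), with 17.4% of its end shared with other transcripts, among them that of its neighbour Zfp764. Zfp935 had 88 and 39 reads (-1.17), but 100% of the possible reads from its end also match an overlapping annotated gene, so its value is uncertain. Zfp746 encodes PARIS, a repressor of PGC-1α that parkin marks for degradation. It had 136 and 67 reads, a log2 change of -1.02 with an interval of 0.359 to 0.658, and it fell under the 2-fold line when libraries were scaled by total reads. Zfp446 followed at 72 and 37 reads (-0.96, interval 0.333 to 0.767), just inside 2-fold. These 5 genes had between 72 and 136 reads in the control library, more than any of the 23 genes past 2-fold higher.

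The 10 most abundant members differed by less than 1.5-fold between the libraries. Zfp106, which encodes an RNA-binding protein needed by motor neurons and muscle, had about 2861 reads in the control and 2015 in the TSA library. Its log2 change was -0.52 (interval 0.658 to 0.739), one of the larger differences among the abundant members. Zfp706, a small protein with 1 finger, had 2208 and 1672 reads (-0.41, interval 0.703 to 0.799), with 20.7% of its end shared with other transcripts. Zfp281, which acts with the NuRD deacetylase complex, had 1556 and 1726 (0.14, interval 1.03 to 1.18). Zfp292, a large protein with 15 fingers, had 1647 and 1600 (-0.06, interval 0.897 to 1.03), and no difference was detectable at this depth. Zfp871, a KRAB gene with 15 fingers, had 1170 and 1204 (0.03, interval 0.939 to 1.11), likewise without a detectable difference. Zfp800 had 1237 and 1024 reads (-0.29, interval 0.754 to 0.891). At this level counting error was small, so modest differences between these libraries exceeded it, but without replicates the spread between cultures is unknown.

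Members that work in ribosome assembly and quality control were all well covered. Zfp622, which matures the large ribosomal subunit, had 1428 reads in the control and 1183 in the TSA library (log2 change -0.29, interval 0.759 to 0.887). Zfp593, which accompanies the large subunit precursor out of the nucleus, had 1097 and 1038 (-0.09, interval 0.860 to 1.02). Zfp598, the ubiquitin ligase that marks collided ribosomes, had 562 and 629 (0.15, interval 0.987 to 1.24). Of the 3, the interval excluded no change for Zfp622 alone, on the lower side, where 31.6% of all rows were.

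The genes of RNA binding and processing, besides Zfp106, were Zfp638, Zfp326, Zfp830 and Zfp346. Zfp830, a spliceosome-associated protein, had 486 and 369 reads (-0.41, interval 0.655 to 0.863). Zfp638 (NP220), which binds cytidine-rich sequences, had 984 and 958 (-0.05, interval 0.881 to 1.05). Zfp326, part of the DBIRD complex that couples splicing to elongation, had 694 and 777 (0.15, interval 0.999 to 1.23). Zfp346 (JAZ), which binds double-stranded RNA, had 189 and 199 (0.06, interval 0.850 to 1.28). Zfp106 and Zfp830 were the 2 of these 5 genes with an interval below no change, near the 31.6% of all rows. Zfp207 (BuGZ), which loads BUB3 at kinetochores during mitosis, had 746 and 621 reads (-0.28, interval 0.740 to 0.918).

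Members known for imprint control and silencing of retroelements went in both directions. Zfp445, which helps keep imprints in the embryo, had 999 and 1070 reads (0.09, interval 0.972 to 1.16). Zfp809, which silences murine leukemia virus through its primer binding site, had 285 and 351 (0.28, interval 1.04 to 1.43). Zfp568, which represses a placental promoter of Igf2, had 173 and 112 (-0.64, interval 0.501 to 0.818). Zfp932, which silences endogenous retroviruses, had 173 and 134 (-0.38, interval 0.607 to 0.967), with 42.4% of its end shared with other transcripts. None of these 4 members passed 2-fold. The fifth listed gene, Zfp57, with 0 and 8 reads, did not reach the level cut-off.

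Of 15 listed genes of chromatin complexes and transcription cofactors, 14 were members, with 10 higher and 4 lower. Zfp516, a cofactor known from brown fat, was past 2-fold higher at 31 and 67 reads (1.07, interval 1.38 to 3.39), but not with a pseudocount of 5 (0.99). Zfp217, a partner of CtBP and CoREST, had 218 and 423 reads, a log2 change of 0.94 with an interval of 1.63 to 2.27. It had the largest change of the 59 members at a mean level of 8 or more. Zfp687 and Zfp592 are partners of ZMYND8 in one complex. Zfp687 had 132 and 212 reads (0.67, interval 1.27 to 1.99), and Zfp592 had 490 and 700 (0.50, interval 1.26 to 1.59). Zfp219 had 1002 and 1473 (0.54, interval 1.34 to 1.58). Zfp148, which binds GC-rich promoters, had 1010 and 1190 (0.22, interval 1.07 to 1.27). Zfp644, a partner of the histone methyltransferases G9a and GLP, had 682 and 789 (0.20, interval 1.03 to 1.27). For 8 of the 14 genes, these 7 and Zfp281, the interval lay above no change, and for 3 it lay below, against the 26% and 31.6% of all rows given above. The list was chosen with earlier results of these data known, so nothing is read from this comparison.

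The lower genes of this list were Zfp384, Zfp335, Zfp410 and Zfp143. Zfp384 had 100 and 59 reads (-0.77, interval 0.416 to 0.814). Zfp335, part of a histone H3K4 methyltransferase complex and required for maturing T cells, had 255 and 188 (-0.45, interval 0.601 to 0.885). Zfp410, which activates Chd4, had 282 and 225 (-0.34, interval 0.660 to 0.945). Zfp143, which binds many promoters, had 220 and 205 reads (-0.12, interval 0.759 to 1.12), without a detectable difference. Zfp609, a partner of the cohesin loader, had 325 and 378 (0.20, interval 0.990 to 1.34), and Zfp451, a SUMO ligase, had 365 and 387 (0.07, interval 0.908 to 1.21). For these last 3 genes the interval included no change.

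Among genes studied in lymphocytes, Zfp318, which controls the switch between IgM and IgD in B cells, had 734 and 506 reads (-0.55, interval 0.608 to 0.766). Zfp91, a ubiquitin ligase of the noncanonical NF-κB pathway, had 1165 and 981 (-0.26, interval 0.765 to 0.908). Zfp131, a BTB zinc finger protein, had 800 and 722 (-0.16, interval 0.807 to 0.989). Zfp831 had 94 and 131 reads (0.46, interval 1.05 to 1.82). Thus 3 of the 4 members of this list had an interval below no change and 1 above, against 31.6% and 26% of all rows, and none was past 2-fold. A list of 4 genes is too short to be set against these shares. The fifth listed gene, Zfp683, had no row in the table.

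The KRAB box was not used to choose the members, but the values compared here were. Of the 23 members past 2-fold higher, 13 reached the cut-off in the TSA library alone, so they had to be higher there. They include genes with and without the KRAB pattern. The median log2 change was 0.11 for the 115 members with the KRAB pattern and 0.08 for the 118 without it. The pattern misses diverged boxes, so the 118 can include KRAB genes. Past 2-fold higher were 13 and 10 (11.3% and 8.47%), against 5.69% of all rows, and past 2-fold lower were 2 in each (1.74% and 1.69%), against 2.08%. The interval lay above no change for 36 of the KRAB members and below for 12, and for the others it was 33 and 30, beside 26% and 31.6% of all rows. The KRAB members were also less abundant, with a median level of 6.37 against 7.42, which widens their intervals. Within the mean level below 6, 9 of 43 KRAB members and 8 of 24 others were past 2-fold higher, against the 29% of all rows given above. By number of fingers, the medians were -0.11 for the 6 members with none, 0.06 for 27 with 1 to 3, 0.00 for 22 with 4 to 6, 0.11 for 67 with 7 to 10, 0.11 for 64 with 11 to 14 and 0.22 for 47 with 15 or more. The median level fell from 8.46 with 1 to 3 fingers to 6.42 with 15 or more. Whether the level, the structure or neither goes with the change was not tested.

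The corepressor machinery that KRAB proteins recruit was well transcribed, and most of it was lower in the TSA library. Of 20 genes at the cut-off on a list of KRAB corepressors and the HUSH complex, 17 were lower and 3 higher, with a median log2 change of -0.16, and none was past 2-fold. Among all rows at a mean level of 8 or more, 61.4% were lower. Trim28, the scaffold, had about 5844 reads in the control and 4414 in the TSA library (-0.42, interval 0.719 to 0.778). Setdb1, which methylates histone H3 lysine 9, had 1599 and 1488 (-0.12, interval 0.858 to 0.989). Mphosph8, a HUSH subunit that reads this mark, had 3469 and 2391 (-0.55, interval 0.648 to 0.719). Fam208a (TASOR), another HUSH subunit, was higher, with 1087 and 1365 reads (0.31, interval 1.15 to 1.35). Also higher was Hdac1, the catalytic subunit of several corepressor complexes, with 1315 and 1836 reads (0.47, interval 1.29 to 1.49). With scaling by total reads, 15 of the 20 were lower.

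Other zinc finger families differed little in their medians. For 12 Zkscan or Zscan genes, which carry SCAN or KRAB domains, the median log2 change was 0.04, and for 32 Zbtb genes, which carry a BTB domain, it was -0.15. It was -0.03 for 14 Klf and Sp factors, -0.08 for 14 Zc3h genes, whose fingers bind RNA, and 0.06 for 18 Zdhhc genes, which are palmitoyltransferases. Past 2-fold were 2 of the 32 Zbtb genes, Zbtb10 and Zbtb8a, and 2 of the 14 Klf and Sp factors, Klf2 and Sp6, all higher, against 5.69% of all rows. By level, that share fell from 29% of rows below a mean of 6 to 0.424% at 8 or more, where Klf2 lies. Sp6, with 3 and 43 reads, reached the cut-off in the TSA library alone and so had to be higher there. Klf2, a factor of quiescent T cells, had 1158 and 2436 reads (1.06, interval 1.94 to 2.24), a depth that no Zfp gene past 2-fold had.

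The members lay unevenly on the chromosomes. Chromosome 7 held 59 of the 234 members with a position in GENCODE M21 (GRCm38), chromosome 17 held 30, chromosome 8 held 19 and chromosome 13 held 18. When members with gaps of at most 500 kb were joined, 20 groups of at least 3 genes formed, with 118 members. In 61 of 111 adjacent pairs (55%) both genes differed in the same direction. Of the 20 groups, 4 had all members higher, none had all members lower, and 16 were mixed. Since 62.3% of all members were higher, many pairs would share a direction whether neighbours or not. Nothing is therefore read from these counts.

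The group with the highest median, 0.84, was at chr7:6131491-6396915. In order along the chromosome it holds Zfp787, Zfp444, Zfp667, Zfp583, Zfp78 and Zfp28. Zfp787 had 105 and 57 reads and was lower (-0.88, interval 0.382 to 0.749). Zfp444 had 269 and 308 (0.18) and Zfp667 84 and 110 (0.37), with intervals that included no change. Zfp583, Zfp78 and Zfp28, the 3 KRAB members whose finger bases are printed above, were all past 2-fold higher, against 5.69% of all rows. By level the share was 29% of rows below a mean of 6, where Zfp583 and Zfp78 lie, and 8.55% of rows between 6 and 7, where Zfp28 lies. Zfp583 and Zfp78 reached the cut-off in the TSA library alone, so they had to be higher there, and the group is described because its median was the highest. The 3 genes lie within chr7:6315660-6396915, and none of their ends shared a 75-base read with another annotated transcript.

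On chromosome 13, at chr13:67312998-67827002, 11 members lie side by side, all with the KRAB pattern, and 9 of them were higher. Their median was 0.31. Zfp273, at one end, had the largest change (1.90), and Zfp738 followed with 42 and 81 reads (0.92, interval 1.30 to 2.84). Zfp87 had 130 and 185 reads (0.49, interval 1.12 to 1.78), with 22.1% of its end shared. For the other 8 genes the interval included no change. Such neighbours can be closely alike, since the first regular finger of Zfp65 and that of Zfp738 are coded by the same 63 bases. In contrast, 5 of 10 members at chr7:127233061-127885996 were higher and 5 lower. There, Zfp553 had 134 and 77 reads (-0.81, interval 0.424 to 0.759), Zfp764 had 161 and 97 (-0.74, interval 0.459 to 0.772), and Zfp747 is described above. Among the largest groups, 14 members on chromosome 17 (chr17:21008903-22456689) split into 7 higher and 7 lower.

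**Figure D4:**
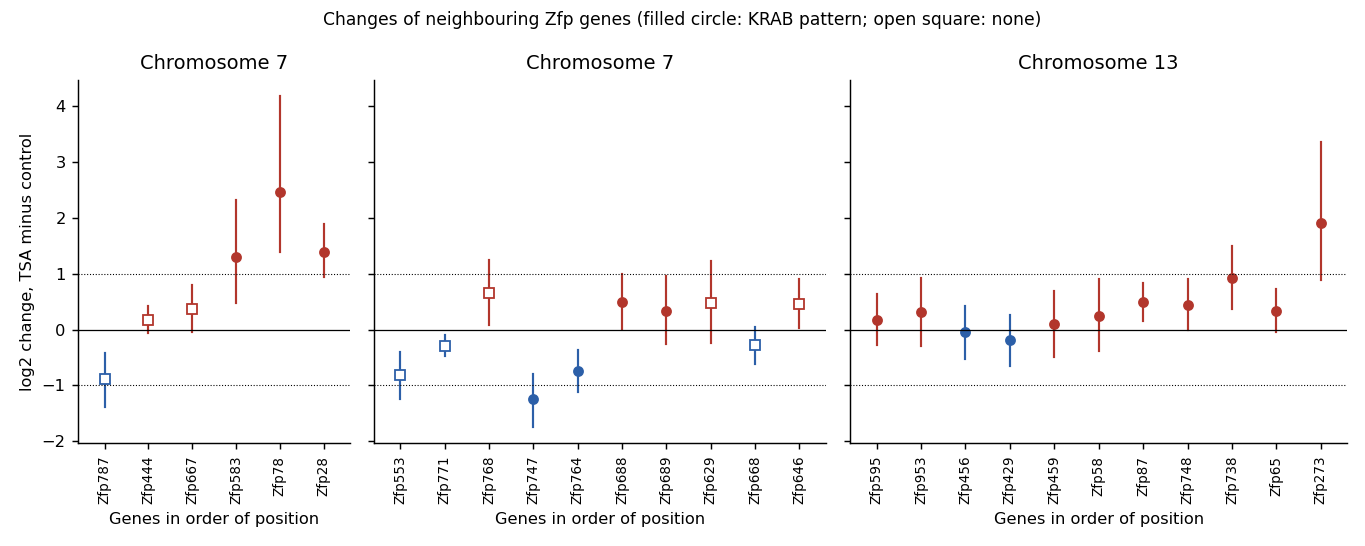
log2 change (TSA minus control) of neighbouring Zfp genes in 3 groups, in order of position, with exact 95% counting intervals. Filled circles have the KRAB pattern and open squares do not, and red is higher and blue lower in the TSA library. In the left group 3 neighbours sit above 1, in the middle group genes differ in both directions, and on chromosome 13 9 of 11 genes sit above 0.

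Promoters were compared by short motifs, in 300 bases from 250 before to 50 after each RefSeq gene start (GRCm38.p6). An entry was found for 195 of the 236 members. The letters ACTACA, then any pair of bases, then TCCC are part of the site bound by ZNF143 (Zfp143 in the mouse). They were present on either strand in 31 members, or 15.9%. They were present in 5.31% of 7926 genes at the cut-off and in 2.08% of 27025 genes of the promoter table. The centres of the matches lay at a median of 45 bases before the gene start. The motif was chosen after promoter sequences had been seen. The stretches below are 30 bases long, with the motif in capitals, written 5′ to 3′ on the strand that reads it. They are from the 4 members past 2-fold higher that held it and, for contrast, from Zfp661, which was the lowest of the 31.
Zfp273: cagagagaaACTACATTTCCCagaagtcta
Zfp933: ttccaaagaACTACAATTCCCagcattcca
Zfp28: ccgctggggACTACACTTCCCagggggcct
Zfp2: gcgcgcgggACTACATTTCCCacaagacca
Zfp661: tttgcatgaACTACACTTCCCagaagcatc
Their positions are chr13:67813740-67813769 (minus strand), chr4:147848430-147848459 (minus), chr7:6383164-6383193 (plus), chr11:50916158-50916187 (plus) and chr2:127584737-127584766 (plus). Zfp661 had 100 reads in the control and 62 in the TSA library (-0.69, interval 0.440 to 0.851), so a gene with the motif could also be lower.

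The 31 members with the motif had a median log2 change of 0.31, and 24 of them were higher. Without it, the median of 164 members was 0.07, and 95 were higher. Past 2-fold higher were 4 of the 31 and 15 of the 164, against 5.69% of all rows at the cut-off. The members with the motif were less abundant, with a median level of 6.32 against 6.85, and the order of the medians was not the same at every level. Below a mean level of 6, the median was 0.31 for 11 members with the motif and 0.48 for 48 without, and 2 and 13 of them were past 2-fold higher, against 29% of all rows in that range. Between 6 and 7, the medians were 0.34 for 13 members and -0.01 for 43, and 2 in each were past 2-fold higher, against 8.55% of all rows. Between 7 and 8 they were 0.03 for 3 members and 0.01 for 25, and at 8 or more 0.29 for 4 and 0.06 for 48. The motif was not spread evenly over the family. The group of 11 on chromosome 13 held 9 of the matches, and a group of 11 at chr7:29768552-30134950 held 7. Those genes are neighbours, and neighbours in this family can be alike in sequence, so they are not taken as independent of each other. How alike their promoters are was not measured. In the chromosome 13 group the 9 genes with the motif had a median of 0.31, and in the chromosome 7 group the 7 genes had a median of 0.03, with 4 higher and 3 lower. The 15 genes outside both groups had a median of 0.40 at a median level of 6.32, and 13 of them were higher. Of all 236 members 62.3% were higher, and of all rows at a mean level of 6 to 7, 59% were. Zfp143 itself, given above, had 220 and 205 reads.

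**Figure D5:**
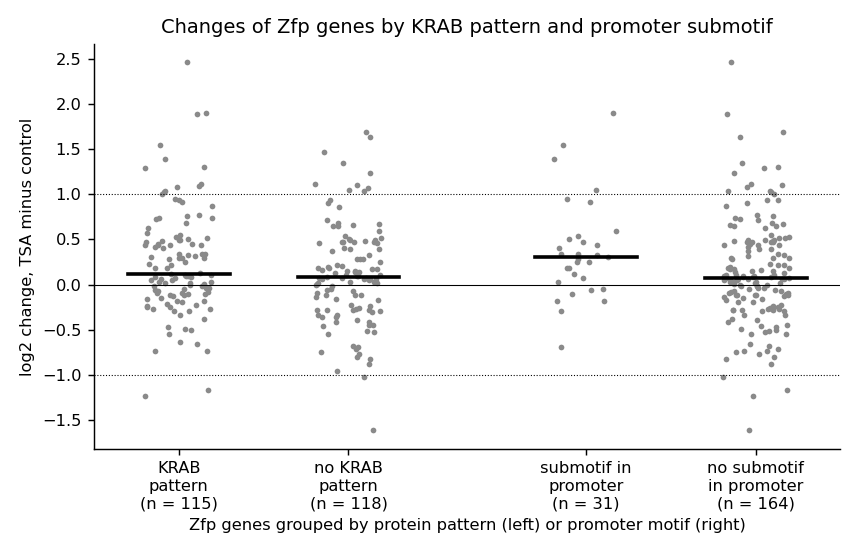
log2 change (TSA minus control) of each Zfp gene, grouped by the KRAB pattern of the protein (left) and by the ZNF143 submotif in the promoter (right), with horizontal jitter. Bars mark medians, which are 0.11 with and 0.08 without the KRAB pattern, and 0.31 with and 0.07 without the submotif. The groups overlap over most of their range.

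Other motifs were each searched on both strands and counted separately, so that overlapping matches count for each. The ETS letters CCGGAAG were in 23.6% of the members' promoters and in 22.9% of genes at the cut-off. For NRF1 (GCGC, any base, TGCGC) the shares were 11.3% and 13%, for YY1 (AAGATGGCG) 5.13% and 4.25%, and for the CRE (TGACGTCA) 4.10% and 3.99%. The GC box letters GGGCGG were less frequent in the members, at 53.3% against 70.8%. The median log2 changes of members with and without the motif were 0.18 and 0.08 for ETS and 0.07 and 0.10 for NRF1. They were 0.07 and 0.18 for the GC box, -0.15 and 0.10 for YY1 (10 members with it) and 0.08 and 0.09 for the CRE. The median promoter window of the members held 16 CG dinucleotides, and that of the genes at the cut-off held 21.

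The end of the transcript decides which gene a QuantSeq read is given to, and duplicated genes can share it. Of 234 members checked, 36 shared at least one 75-base stretch in their last 500 bases with another annotated gene, and 6 shared over 50% of them. The median log2 change was 0.10 for the 198 members with nothing shared and -0.05 for the 36. Of the 23 members past 2-fold higher, 20 shared nothing, as did 2 of the 4 lower. The ends of 31 members overlapped a gene on the opposite strand, and those of 18 a gene on the same strand.

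At the edge of the level cut-off, the 3 members just inside were Zfp750, with 22 reads in the control and 32 in the TSA library, Zfp273, with 8 and 33, and Zfp382, with 33 and 31. Just outside were Zfp85, with 18 and 30, Zfp563, with 29 and 18, and Zfp169, with 3 and 29. Genes on either side of the line thus differed by few reads, and a gene with a large difference, Zfp169, lay outside it.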

How the data were processed

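RNA from 2 cultures, 1 per condition, was made into QuantSeq libraries, read for 75 nt from a single end (NextSeq 500) and processed by the authors with ExDEGA. The submitters' processing notes name Bowtie2, bedtools and the mm10 build, and the counting rule and normalization are not given in the sources used here. The values the authors deposited are on a log2 scale, as log2 of a normalized count plus 1 per gene and library. Back-transformed values were multiples of 1.00 (control) and 0.995 (TSA) normalized counts, and among values of up to 300 reads 99.95% and 99.94% lay within 0.1 of a whole read. In the control library, 1940 rows listed just above 0 were read as 0 reads. Counts of the most abundant genes are approximate, since the deposited values are rounded. Groups were taken from the treatment label.

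A change is the TSA value minus the control value as deposited, so it holds a pseudocount of 1. Genes were described by counts past 2-fold, medians and exact Clopper-Pearson intervals of the recovered reads, without p-values. The members, gene lists and motifs were chosen with earlier results of these data known. Named were up to 15 members past 2-fold in each direction (at least 5), the 10 with the highest level, members of role lists, genes at the edge of the cut-off and examples of other families, and genes of the described neighbour groups and Zfp661 were added after their values were seen. Positions, proteins (translated from the coding bases) and transcript ends came from GENCODE M21, and promoters from the RefSeq table of GRCm38.p6, all matched by symbol. The KRAB pattern is a short residue pattern within the first 300 residues and before the first finger, and it misses diverged boxes. Steps were tested on simulated data. Python 3.11.15, numpy 2.4.6, scipy 1.17.1 and pandas 2.3.3 were used. Alternatives covered the scaling, pseudocount, level filter and threshold.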

Additional observations from a re-analysis of the deposited data

How the results depend on the processing

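No paired analysis was possible because each condition had a single library, and for the same reason none could be left out. With at least 5 in both libraries, a mean of at least 5, at least 6 in either library or at least 1 read, 10 of 212, 14 of 224, 11 of 188 and 46 of 312 Zfp genes were past 2-fold higher in place of 23 of 236, while all rows gave 2.38%, 3.46%, 3.29% and 18.0% in place of 5.69%. With at least 1 read, 13 of the 312 were past 2-fold lower in place of 4, against 7.68% of all rows. At 1.5-fold the counts were 44 and 17, against 12.2% and 7.29% of all rows, and with the whole counting interval beyond 2-fold they were 4 and 1, against 2.17% and 0.627%, since these rules are wider or stricter by construction. Scaling by total reads moved all changes by 0.07, added Zfp217, Zfp560 and Zfp790 to the higher genes, took Zfp746 from the lower ones and changed the sign of 11 members, and the share of higher among all rows past 2-fold went from 73.2% to 79.6%. A pseudocount of 5 kept 16 of the 23, losing Zfp873, Zfp2, Zfp516, Zfp937, Zfp316, Zfp579 and Zfp94, and lost Zfp746 of the 4. The medians of all members, KRAB members and others kept their sign under each alternative run for them, whereas that of all rows at the cut-off went from -0.02 to 0.05 with total reads and to 0.02 with the upper quartile, and all 285 values of single named members under the alternatives for scaling and pseudocount kept their direction or differed by less than their counting interval. Depth limits the genes with few reads, and differences between cultures were not measured.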

Other observations

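Of the 336 Zfp genes in the table, 100 lay under the level cut-off. No read was found for 24 of them in either library, and 76 had reads. Among the 47 with at least 10 reads in 1 of the libraries, 27 had more and 20 fewer normalized counts with TSA. The counting interval lay above no change for 10 of the 76 (13.2%) and below it for 4 (5.26%). Among all 5259 rows under the cut-off with reads, the shares were 20.4% and 3.84%.

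Some of these genes had no read in the control library, so that no fold is given and the counting interval of the TSA over control ratio has a lower end only. Zfp352 had 0 and 15 reads, with an interval that starts at 3.55, and Zfp389 had 0 and 14, with one that starts at 3.28. Zfp57, the KRAB gene that keeps genomic imprints, had 0 and 8 reads, with an interval that starts at 1.69. Zfp423, known from fat cell precursors, had 0 and 6 reads, with an interval that starts at 1.17. In the other direction, Zfp13 had 7 and 0 reads, with an interval that ends at 0.687. Zfp462 had 0 reads and 1 read, too few for a fold. Zfp169, just outside the cut-off, had 3 and 29 reads, a ratio of 9.57 with a counting interval of 2.97 to 49.1. Zfp651 had 3 and 22 reads, a ratio of 7.26 with an interval of 2.18 to 37.9. Zfp438 had 24 and 8 reads, a ratio of 0.330 with an interval of 0.128 to 0.759. Apart from the listed roles, these genes were named after their values were seen, and no sample other than the 2 libraries bears on them.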
